A study of Homo sapiens with 18 samples.

Results

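The genes described here are 44 members of the Wnt signalling pathway and genes known as its targets, taken by a list of symbols. Each was read from the array feature annotated to it alone, and from the brightest such feature, by mean of 18 arrays, where there were several. Of the 44, 42 had such a feature, among 18404 genes that had one on the array. The expression of PORCN and TCF7 was not analysed here. The samples were 18 Affymetrix Human Gene ST arrays of RNA from HepG2 cells, a line established from a human hepatocellular carcinoma. The cells carried a stably integrated plasmid for the thyroid hormone receptor TRα1, for the receptor TRβ1, or an empty control plasmid. Each of these 3 pools was given 100 nM of the thyroid hormone T3 (triiodothyronine) or its ethanol vehicle for 6 h, in medium with 10% serum stripped of hormones, and each of the 6 groups had 3 arrays from independent repeats. The comparisons ask how these genes respond to T3 in each pool, and how the pools differ.

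All 3 pools went through selection with the drug G418 and a PCR screen for the plasmid, and each construct is represented by a single pool. The TRα1 pool combined 6 clones, the TRβ1 pool 12 and the control pool 11, so an effect of the receptor and a difference between sets of clones cannot be told apart. In RNA from whole cultures, fewer cells that express a gene and less RNA per cell cannot be told apart either. The repeats are separate treatments of the same pools, and p-values measure the spread between the arrays within groups. In comparisons averaged over treatments, the T3 and vehicle arrays of a repeat count as separate values. Values are log2 expression after the RMA normalization, so 1 unit is a doubling. Levels of different genes cannot be compared on this scale, so where a gene is shown because its array mean is the highest in its role, that is a rule of choice and no order of expression. Differences are given with their standard error (SE), and adjusted p-values (two-sided, threshold 0.05) come from the limma fit over all 20546 features with a gene symbol.

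Wnt ligands bind Frizzled receptors and their co-receptors LRP5 and LRP6, which leads through the Dishevelled proteins to inhibition of the complex of AXIN, APC and GSK3 that marks β-catenin for degradation. β-catenin then joins TCF and LEF factors in the nucleus and switches on target genes, many of which encode inhibitors of the pathway itself. In the liver the pathway is known for keeping the gene programme of hepatocytes around the central vein, glutamine synthetase among it, and HepG2 cells carry a deletion in CTNNB1 that stabilizes β-catenin.

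The promoters of the 4 members below are shown as examples of genes that carried the differences between pools or the T3 differences described next. WNT11, KREMEN1, AXIN2 and DKK4 had no window in the set read, and the windows of GLUL and FZD4 are not shown. Each window runs from 250 bases before to 50 bases after the start of the gene in RefSeq on GRCh38.p14, on the plus strand. Capitals mark matches to CTTTGA, the core of the TCF/LEF binding site, or to its reverse complement TCAAAG. The windows lie at chr18:10454385-10454684 for APCDD1, chr10:28677271-28677570 for BAMBI, chr10:52314031-52314330 for DKK1 and chr2:170715087-170715386 for SP5.
APCDD1: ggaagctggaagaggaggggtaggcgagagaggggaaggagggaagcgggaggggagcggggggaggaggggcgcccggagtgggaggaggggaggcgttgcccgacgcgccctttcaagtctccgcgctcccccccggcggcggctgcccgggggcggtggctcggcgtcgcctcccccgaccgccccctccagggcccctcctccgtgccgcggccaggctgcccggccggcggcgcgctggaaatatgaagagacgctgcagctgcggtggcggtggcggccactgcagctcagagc
BAMBI: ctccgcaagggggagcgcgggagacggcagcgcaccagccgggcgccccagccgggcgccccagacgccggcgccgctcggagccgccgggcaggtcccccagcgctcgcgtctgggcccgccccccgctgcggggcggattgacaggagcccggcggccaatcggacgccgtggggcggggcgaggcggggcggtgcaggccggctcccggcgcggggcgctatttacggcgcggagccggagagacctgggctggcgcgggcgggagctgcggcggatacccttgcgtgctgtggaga
DKK1: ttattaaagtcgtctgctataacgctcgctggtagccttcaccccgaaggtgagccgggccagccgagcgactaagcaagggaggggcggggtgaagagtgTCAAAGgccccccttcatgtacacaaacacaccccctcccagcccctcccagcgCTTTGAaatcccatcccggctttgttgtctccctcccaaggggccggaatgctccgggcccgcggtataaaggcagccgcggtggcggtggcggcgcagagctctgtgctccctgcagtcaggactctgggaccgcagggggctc
SP5: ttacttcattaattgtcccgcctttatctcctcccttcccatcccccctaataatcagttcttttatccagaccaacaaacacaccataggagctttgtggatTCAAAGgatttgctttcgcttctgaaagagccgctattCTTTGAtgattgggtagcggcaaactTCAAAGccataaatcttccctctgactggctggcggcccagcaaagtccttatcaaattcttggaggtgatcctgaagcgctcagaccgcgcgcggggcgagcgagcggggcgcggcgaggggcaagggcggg
The SP5 window held 3 matches, at positions -147, -109 and -83 from the start, and the DKK1 window held 2, at -149 and -95. APCDD1 and BAMBI held none in these 300 bases, which says nothing of sites elsewhere. Across 38 windows of 29 members, PORCN and TCF7 included, 3 (7.89%; SP5, DKK1 and PORCN) held the motif, against 12.9% of all 35116 promoters of this length. AGGTCA, the repeated unit of thyroid hormone response elements, was in 3 of the 38 windows on either strand (7.89%; TCF7, TCF7L2 and PORCN), against 13.8% of all promoters, and in none of the 4 shown. These shares rest on 3 windows each, and their difference from all promoters was not tested.

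Arrays with replicate number 1 stood apart from those numbered 2 and 3 in every group, along a first principal component that held 49.2% of the variance. Of the 42 members, 35 had lower values on the arrays numbered 1, against 68.2% of all features, while BAMBI (0.57 higher) and WNT11 (0.37 higher) went the other way. Same-numbered arrays resembled each other across groups, so each result is also given from a model with a block for the replicate number where that changes the call. The 7 hepatocyte and hepatoma markers lay between 10.0 and 12.9 on every array, and the 12 markers of fibroblasts, endothelium and leukocytes between 2.01 and 6.63. None of these 12 passed the test between pools or on T3 averaged over the pools, in either fit. Of the hepatocyte markers 2 passed without the block: TTR was lower by -0.70 (adjusted p = 0.00211) and AFP by -0.31 (adjusted p = 0.0149) in TRα1 than in control cells. Both were higher in TRβ1 than in TRα1 cells, TTR by 0.63 (adjusted p = 0.0136) and AFP by 0.31 (adjusted p = 0.0379). With the block ALB was also lower (-0.21, adjusted p = 0.0123) and APOA1 higher (0.32, adjusted p = 0.0154) in TRα1 than in control cells, and FGB was higher on T3 (0.26, adjusted p = 0.049). The part of these markers in the results was not tested. The feature of THRA, which encodes TRα1, was higher in TRα1 than in control cells by 0.69 ± 0.10 (SE, adjusted p = 0.0014), averaged over treatments. On vehicle alone this THRA difference was 0.44 ± 0.14, with an adjusted p of 0.533, or 0.128 with the block. The feature of THRB, which encodes TRβ1, differed between TRβ1 and control cells by 0.33 ± 0.10, with an adjusted p of 0.403, or 0.037 with the block. THRB was also higher on T3 averaged over the pools, by 0.45 ± 0.09 (adjusted p = 0.0237).

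More of these genes passed between the pools than between T3 and vehicle. Over all features, more also passed between TRα1 and control cells (1.38% without the block) than for T3 averaged over the pools (0.423%). This was not so for TRβ1 against control cells (0.38%) or TRβ1 against TRα1 cells (0.35%). In the TRα1 pool the pathway inhibitor APCDD1, the ligand WNT11 and the receptor-like protein BAMBI were 1.77 to 1.85 times the control level, and the inhibitor DKK1 was lower. In the TRβ1 pool DKK1 was at 0.54 of the control level. Averaged over T3 and vehicle arrays, 4 of 42 members passed the test between TRα1 and control cells, where 1.38% of all features passed. Of these members 3 were higher (1.04% of all features) and 1 lower (0.341%). Between TRβ1 and control cells 1 member passed, which was lower (0.38% of all features, 0.102% lower), and between TRβ1 and TRα1 cells 1, also lower (0.35%, 0.185% lower). With the block these counts were 9 (7.54% of all features), 6 (3.61%) and 6 (2.2%). The TRα1 and TRβ1 pools were set against the same control arrays, so these comparisons are not independent. When the T3 and vehicle arrays of each pool and number were first averaged, as an alternative added after seeing the data, the counts with the block were 6 (2.62% of all features), 1 (0.715%) and 3 (0.745%). Without the block this averaging left 1, 0 and 0, for which the share of all features is not given here. APCDD1 alone still passed between TRα1 and control cells, and WNT11, DKK1 and BAMBI did not. The calls without the block for DKK1 between TRβ1 and control cells and for APCDD1 between TRβ1 and TRα1 cells were lost too. Where a gene loses the call it had with the block, its adjusted p from the averaged arrays with the block is given too.

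**Figure D1:**
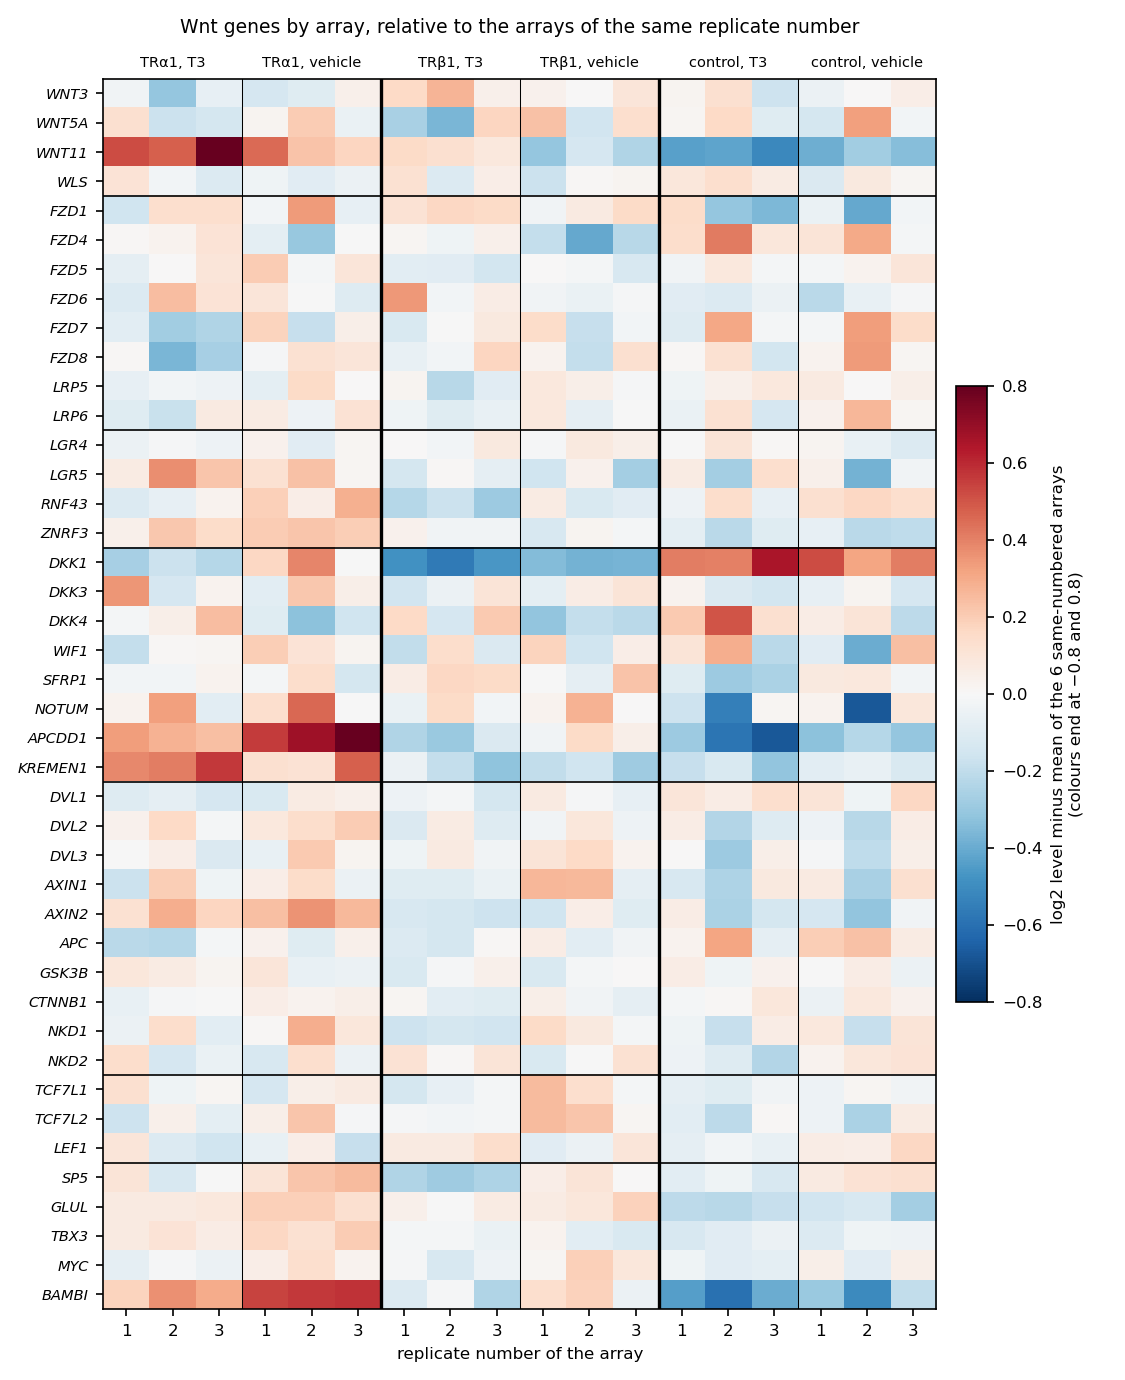
Heat map of the 42 measured members (rows, in the order of their roles, separated by thin lines) on the 18 arrays (columns), as the log2 level minus the mean of the 6 arrays with the same replicate number. WNT11, APCDD1 and BAMBI are red on all 6 TRα1 arrays and blue on all 6 control arrays, and DKK1 is red on the control arrays and blue on the TRβ1 arrays.

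Among the inhibitors that act outside the cell or at its membrane, APCDD1, a membrane glycoprotein that binds Wnt ligands and LRP co-receptors, had the smallest adjusted p of the members between TRα1 and control cells. It was at 6.32, 6.40 and 6.22 on T3 and 6.55, 6.80 and 6.80 on vehicle in TRα1 cells. In TRβ1 cells it was at 5.75, 5.83 and 5.87 on T3 and 5.96, 6.28 and 6.03 on vehicle. In control cells it was at 5.70, 5.54 and 5.31 on T3 and 5.66, 5.89 and 5.68 on vehicle. All 6 TRα1 arrays except the lowest lay above every TRβ1 array, and all 6 lay above every control array, while TRβ1 and control arrays overlapped. The control values, 5.31 to 5.89, were close to the array medians of 5.31 to 5.49, and the feature was below the median on 1 array. APCDD1 was higher in TRα1 than in control cells by 0.89 ± 0.09 (SE, 6 of 6 pairs, adjusted p = 2.73e-05), 1.85-fold. It was lower in TRβ1 than in TRα1 cells by -0.56 ± 0.09 (6 of 6 pairs, adjusted p = 0.00646). Between TRβ1 and control cells it was 0.32 ± 0.09 higher in 6 of 6 pairs, with an adjusted p of 0.212, or 0.0209 with the block and 0.115 with the averaged arrays.

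DKK1, a secreted inhibitor that binds LRP5 and LRP6 and is itself a target of β-catenin, took a different order. It was at 7.99, 8.33 and 8.21 on T3 and 8.42, 8.89 and 8.43 on vehicle in TRα1 cells. TRβ1 cells had values of 7.77, 7.94 and 7.97 on T3 and 7.91, 8.12 and 8.06 on vehicle. Control cells had values of 8.67, 8.90 and 9.09 on T3 and 8.78, 8.81 and 8.85 on vehicle. The TRβ1 arrays all lay below the control arrays, with TRα1 arrays between and overlapping both. DKK1 was lower in TRβ1 than in control cells by -0.89 ± 0.10 (SE, 6 of 6 pairs, adjusted p = 2.14e-04), and lower in TRα1 than in control cells by -0.47 ± 0.10 (5 of 6 pairs, adjusted p = 0.0242). The second of these calls was lost when any of 8 single arrays was left out: T3 replicates 1 and 3 or vehicle replicates 1 and 3 of TRα1, or T3 replicates 2 and 3 or vehicle replicates 2 and 3 of control cells. The adjusted p then reached 0.0779, and it was 0.0837 when only the TRα1 and control arrays were fitted. Between TRβ1 and TRα1 cells DKK1 differed by -0.42 ± 0.10, with an adjusted p of 0.122, or 0.00424 with the block and 0.0645 with the averaged arrays.

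KREMEN1, a receptor that takes up LRP6 together with DKK1, was at 7.67, 7.98 and 8.27 on T3 and 7.41, 7.68 and 8.18 on vehicle in TRα1 cells. The TRβ1 pool gave 7.24, 7.38 and 7.38 on T3 and 7.09, 7.41 and 7.41 on vehicle. The control pool gave 7.10, 7.45 and 7.39 on T3 and 7.20, 7.51 and 7.58 on vehicle. The TRα1 arrays were the higher ones at each replicate number, while the groups overlapped across numbers. The difference between TRα1 and control cells was 0.49 ± 0.13 (SE, 6 of 6 pairs), with an adjusted p of 0.107, or 6.98e-04 with the block. The difference between TRβ1 and TRα1 cells was -0.55 ± 0.13 (6 of 6 pairs), with an adjusted p of 0.141, or 7.69e-04 with the block. Between TRβ1 and control cells KREMEN1 differed by -0.05 ± 0.13, with a 95% interval of -0.34 to 0.23.

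NOTUM, a secreted enzyme that removes the lipid from Wnt ligands, is shown for the highest array mean among the 8 inhibitors. It was at 10.10, 10.64 and 9.79 on T3 and 10.21, 10.77 and 9.88 on vehicle in TRα1 cells. Levels in TRβ1 cells were 10.02, 10.46 and 9.86 on T3 and 10.10, 10.58 and 9.88 on vehicle. Levels in control cells were 9.90, 9.76 and 9.90 on T3 and 10.10, 9.63 and 9.97 on vehicle. Only the arrays numbered 2 of the receptor pools were far from their control arrays, and no NOTUM comparison between pools passed in either fit. DKK3, WIF1 and SFRP1, 3 further secreted inhibitors, passed no comparison in either fit, and the WIF1 and SFRP1 features were below the array median on all 18 arrays.

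**Figure D2:**
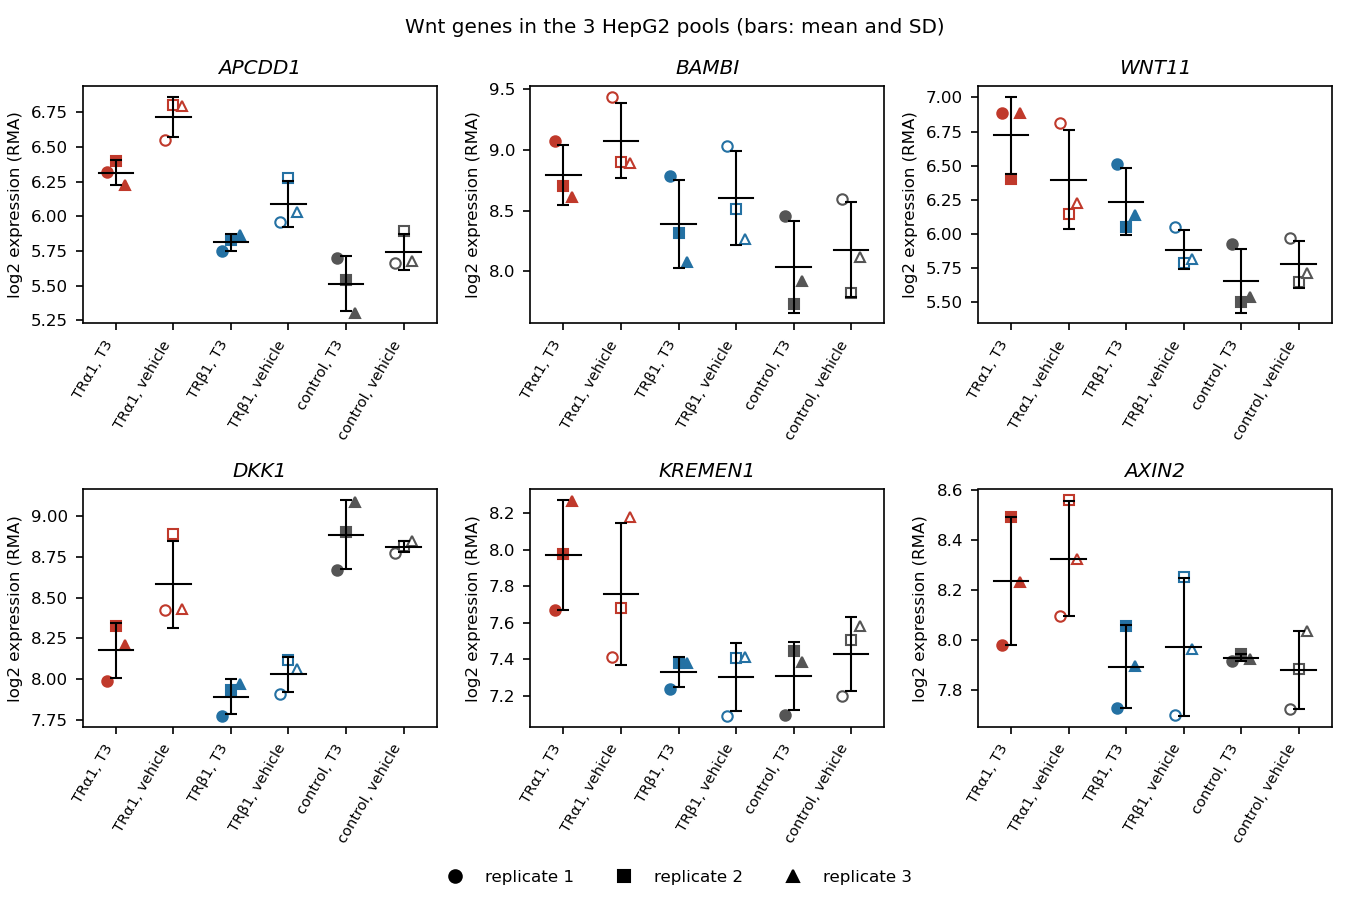
Log2 expression of 6 members on each array, with T3 arrays filled and vehicle arrays open, the replicate number as the symbol, and horizontal lines and bars for the mean and SD of 3 arrays. APCDD1, BAMBI and WNT11 are highest in the TRα1 pool and lowest in the control pool, and DKK1 is lowest in the TRβ1 pool and highest in the control pool.

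Among the ligands, WNT11, which in vertebrates is best known for signalling without β-catenin, was at 6.89, 6.40 and 6.89 on T3 and 6.82, 6.15 and 6.23 on vehicle in TRα1 cells. In TRβ1 cells it was at 6.52, 6.05 and 6.14 on T3 and 6.05, 5.79 and 5.82 on vehicle. In control cells it was at 5.93, 5.50 and 5.54 on T3 and 5.97, 5.65 and 5.72 on vehicle. Every TRα1 array was above every control array, and TRβ1 arrays overlapped both. WNT11 was higher in TRα1 than in control cells by 0.84 ± 0.14 (SE, 6 of 6 pairs, adjusted p = 0.00325), 1.79-fold. Its difference between TRβ1 and control cells was 0.34 ± 0.14 (6 of 6 pairs), with an adjusted p of 0.662, or 0.0135 with the block and 0.0832 with the averaged arrays. Between TRβ1 and TRα1 cells it was -0.50 ± 0.14 (6 of 6 pairs), with an adjusted p of 0.237, or 9.75e-04 with the block. Of the other 3 measured in this role, WNT3, a ligand that signals through β-catenin, is shown for its array mean. It was at 6.36, 6.15 and 6.57 on T3 and 6.25, 6.37 and 6.67 on vehicle in TRα1 cells. TRβ1 cells had values of 6.55, 6.73 and 6.67 on T3 and 6.43, 6.47 and 6.72 on vehicle, while control cells had 6.41, 6.59 and 6.46 on T3 and 6.34, 6.46 and 6.69 on vehicle. The 3 pools overlapped. WNT3, WNT5A and WLS, which carries Wnt proteins to the cell surface, differed from control by -0.10 to 0.10 in both receptor pools and passed no comparison, and WNT5A and WLS were below the array median on all 18 arrays.

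Of the 8 Frizzled and LRP genes, the receptors and co-receptors of Wnt ligands, none passed between TRα1 and control cells in either fit. Their differences ranged from -0.21 to 0.23 with a median of -0.05, against 0.0015 over all features. FZD4 had the widest range of group means in this role: 8.38, 8.22 and 8.63 on T3 and 8.29, 7.89 and 8.51 on vehicle in TRα1 cells. The TRβ1 pool gave 8.38, 8.15 and 8.56 on T3 and 8.18, 7.78 and 8.29 on vehicle, while control cells had 8.51, 8.60 and 8.61 on T3 and 8.47, 8.49 and 8.50 on vehicle. The control arrays lay between 8.47 and 8.61, and the receptor pools reached lower, most of all on the arrays numbered 2. FZD4 differed between TRβ1 and control cells by -0.31 ± 0.12 (SE, lower in 6 of 6 pairs), with an adjusted p of 0.605, or 0.0425 with the block and 0.257 with the averaged arrays. FZD5, shown for the highest array mean among these receptors, was at 8.83, 9.30 and 9.24 on T3 and 9.10, 9.28 and 9.24 on vehicle in TRα1 cells. Levels in TRβ1 cells were 8.82, 9.21 and 8.99 on T3 and 8.90, 9.28 and 9.01 on vehicle, while control cells had 8.87, 9.38 and 9.13 on T3 and 8.88, 9.32 and 9.24 on vehicle. Its arrays overlapped in all groups, with differences from control of 0.03 ± 0.09 in TRα1 and -0.10 ± 0.09 in TRβ1 cells.

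LGR4 and LGR5 receive R-spondins, and RNF43 and ZNRF3 are ubiquitin ligases that remove Frizzled receptors from the membrane. ZNRF3 was at 8.26, 8.74 and 8.72 on T3 and 8.42, 8.74 and 8.77 on vehicle in TRα1 cells. In TRβ1 cells it was at 8.26, 8.49 and 8.55 on T3 and 8.09, 8.54 and 8.56 on vehicle. Control cells had values of 8.14, 8.30 and 8.48 on T3 and 8.15, 8.31 and 8.38 on vehicle. Within each replicate number the TRα1 array was the highest or level with the highest, and the groups overlapped across numbers. Its difference between TRα1 and control cells was 0.32 ± 0.11 (SE, 6 of 6 pairs), with an adjusted p of 0.336, or 0.00188 with the block and 0.0515 with the averaged arrays. RNF43, the closest relative of ZNRF3 in function, was at 7.90, 8.50 and 8.93 on T3 and 8.20, 8.62 and 9.18 on vehicle in TRα1 cells. TRβ1 cells had values of 7.78, 8.39 and 8.61 on T3 and 8.07, 8.44 and 8.80 on vehicle, while control cells had 7.97, 8.70 and 8.83 on T3 and 8.13, 8.73 and 9.03 on vehicle. The replicate numbers set these arrays apart more than the pools did. RNF43 differed by -0.01 ± 0.24 between TRα1 and control cells and by -0.22 ± 0.24 between TRβ1 and control cells (lower in 6 of 6 pairs), and passed in neither fit. LGR5, a stem cell marker in several tissues, is shown for the highest array mean in its role. It was at 9.29, 10.45 and 9.98 on T3 and 9.35, 10.31 and 9.77 on vehicle in TRα1 cells. The TRβ1 pool gave 9.09, 10.09 and 9.69 on T3 and 9.07, 10.11 and 9.48 on vehicle, while control cells had 9.30, 9.80 and 9.90 on T3 and 9.27, 9.70 and 9.73 on vehicle. Its difference between TRα1 and control cells was 0.25 ± 0.24 and its arrays numbered 1 were all below the others.

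Of the 10 members that relay the signal in the cytoplasm, none passed between the pools without the block. AXIN2, a scaffold of the destruction complex and a standard readout of β-catenin activity, was at 7.98, 8.49 and 8.23 on T3 and 8.09, 8.56 and 8.32 on vehicle in TRα1 cells. Levels in TRβ1 cells were 7.73, 8.06 and 7.90 on T3 and 7.70, 8.25 and 7.96 on vehicle. The control pool gave 7.92, 7.94 and 7.92 on T3 and 7.72, 7.88 and 8.03 on vehicle. All TRα1 arrays but 1, replicate 1 on T3, were above all control arrays, and TRβ1 arrays overlapped both. The difference between TRα1 and control cells was 0.38 ± 0.11 (SE, 6 of 6 pairs), with an adjusted p of 0.187, or 0.00347 with the block and 0.0559 with the averaged arrays. Between TRβ1 and TRα1 cells it was -0.35 ± 0.11 (6 of 6 pairs), with an adjusted p of 0.511, or 0.013 with the block and 0.156 with the averaged arrays. AXIN1, which shares the scaffold role but is not a known target, differed between TRα1 and control cells by 0.08 ± 0.15. CTNNB1, which encodes β-catenin, is shown for the highest array mean in its role. It was at 10.53, 11.04 and 11.07 on T3 and 10.64, 11.08 and 11.12 on vehicle in TRα1 cells. In TRβ1 cells it was at 10.61, 10.96 and 10.98 on T3 and 10.64, 11.02 and 11.005 on vehicle, while control cells had 10.58, 11.06 and 11.17 on T3 and 10.55, 11.13 and 11.12 on vehicle. The groups overlapped throughout. Its differences from control were -0.02 ± 0.15 in TRα1 and -0.06 ± 0.15 in TRβ1 cells, and with the block the 95% intervals were -0.12 to 0.09 and -0.17 to 0.04. 

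Among the nuclear factors, TCF7L2, a partner of β-catenin at target genes, was at 7.36, 7.67 and 7.60 on T3 and 7.57, 7.86 and 7.67 on vehicle in TRα1 cells. TRβ1 cells had values of 7.51, 7.61 and 7.66 on T3 and 7.78, 7.86 and 7.69 on vehicle, while control cells had 7.43, 7.43 and 7.69 on T3 and 7.48, 7.38 and 7.74 on vehicle. The groups overlapped. TCF7L2 differed from control by 0.10 ± 0.09 (SE) in TRα1 and by 0.16 ± 0.09 in TRβ1 cells. Neither it nor TCF7L1 and LEF1 passed in either fit, and LEF1 was below the array median on all 18 arrays.

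Of the 5 remaining targets, BAMBI is a receptor-like membrane protein that inhibits TGF-β and BMP signalling and that β-catenin induces. It was at 9.07, 8.70 and 8.61 on T3 and 9.43, 8.90 and 8.89 on vehicle in TRα1 cells. The TRβ1 pool gave 8.79, 8.32 and 8.07 on T3 and 9.03, 8.51 and 8.27 on vehicle. Levels in control cells were 8.46, 7.73 and 7.92 on T3 and 8.60, 7.82 and 8.12 on vehicle. At each replicate number the order was TRα1, TRβ1, control on both treatments, and all TRα1 arrays were above all control arrays. BAMBI was higher in TRα1 than in control cells by 0.83 ± 0.18 (SE, 6 of 6 pairs, adjusted p = 0.0319, 3.7e-06 with the block), 1.77-fold. Without the block this call was lost when any of 10 single arrays was left out, with an adjusted p of up to 0.103: any of the 6 TRα1 arrays, or T3 replicates 2 and 3 or vehicle replicates 2 and 3 of control cells. Its difference between TRβ1 and control cells was 0.39 ± 0.18 (6 of 6 pairs), with an adjusted p of 0.836, or 0.00598 with the block and 0.118 with the averaged arrays. Between TRβ1 and TRα1 cells it was -0.44 ± 0.18 (6 of 6 pairs), with an adjusted p of 0.97, or 0.00277 with the block and 0.0827 with the averaged arrays.

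GLUL, the glutamine synthetase of hepatocytes near the central vein, was at 11.10, 11.30 and 11.16 on T3 and 11.22, 11.41 and 11.20 on vehicle in TRα1 cells. Levels in TRβ1 cells were 11.07, 11.22 and 11.14 on T3 and 11.09, 11.31 and 11.25 on vehicle. In control cells it was at 10.82, 11.002 and 10.89 on T3 and 10.87, 11.09 and 10.80 on vehicle. All TRα1 arrays lay above all control arrays. The difference between TRα1 and control cells was 0.32 ± 0.08 (SE, 6 of 6 pairs), with an adjusted p of 0.0527, or 6.34e-04 with the block. The difference between TRβ1 and control cells was 0.27 ± 0.08 (6 of 6 pairs), with an adjusted p of 0.267, or 0.0048 with the block and 0.137 with the averaged arrays. A second GLUL feature gave 0.28 ± 0.08 and 0.24 ± 0.08, and it also passed only with the block, at adjusted p of 0.00273 and 0.0143. The genome holds near-identical copies of GLUL, and which locus each feature reads was not analysed here. TBX3, a transcription factor, was at 7.82, 8.11 and 8.22 on T3 and 7.91, 8.11 and 8.36 on vehicle in TRα1 cells. In TRβ1 cells it was at 7.73, 7.98 and 8.11 on T3 and 7.77, 7.91 and 8.04 on vehicle, while control cells had 7.62, 7.90 and 8.12 on T3 and 7.63, 7.96 and 8.13 on vehicle. The pools overlapped, and TBX3 differed between TRα1 and control cells by 0.20 ± 0.12 (6 of 6 pairs), with an adjusted p of 0.787, or 0.0198 with the block and 0.203 with the averaged arrays. MYC, a driver of growth and a classical target in colon, differed from control by 0.05 ± 0.07 in both receptor pools. SP5, a transcription factor downstream of β-catenin, differed by 0.08 ± 0.10 in TRα1 and by -0.11 ± 0.10 in TRβ1 cells.

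**Figure D3:**
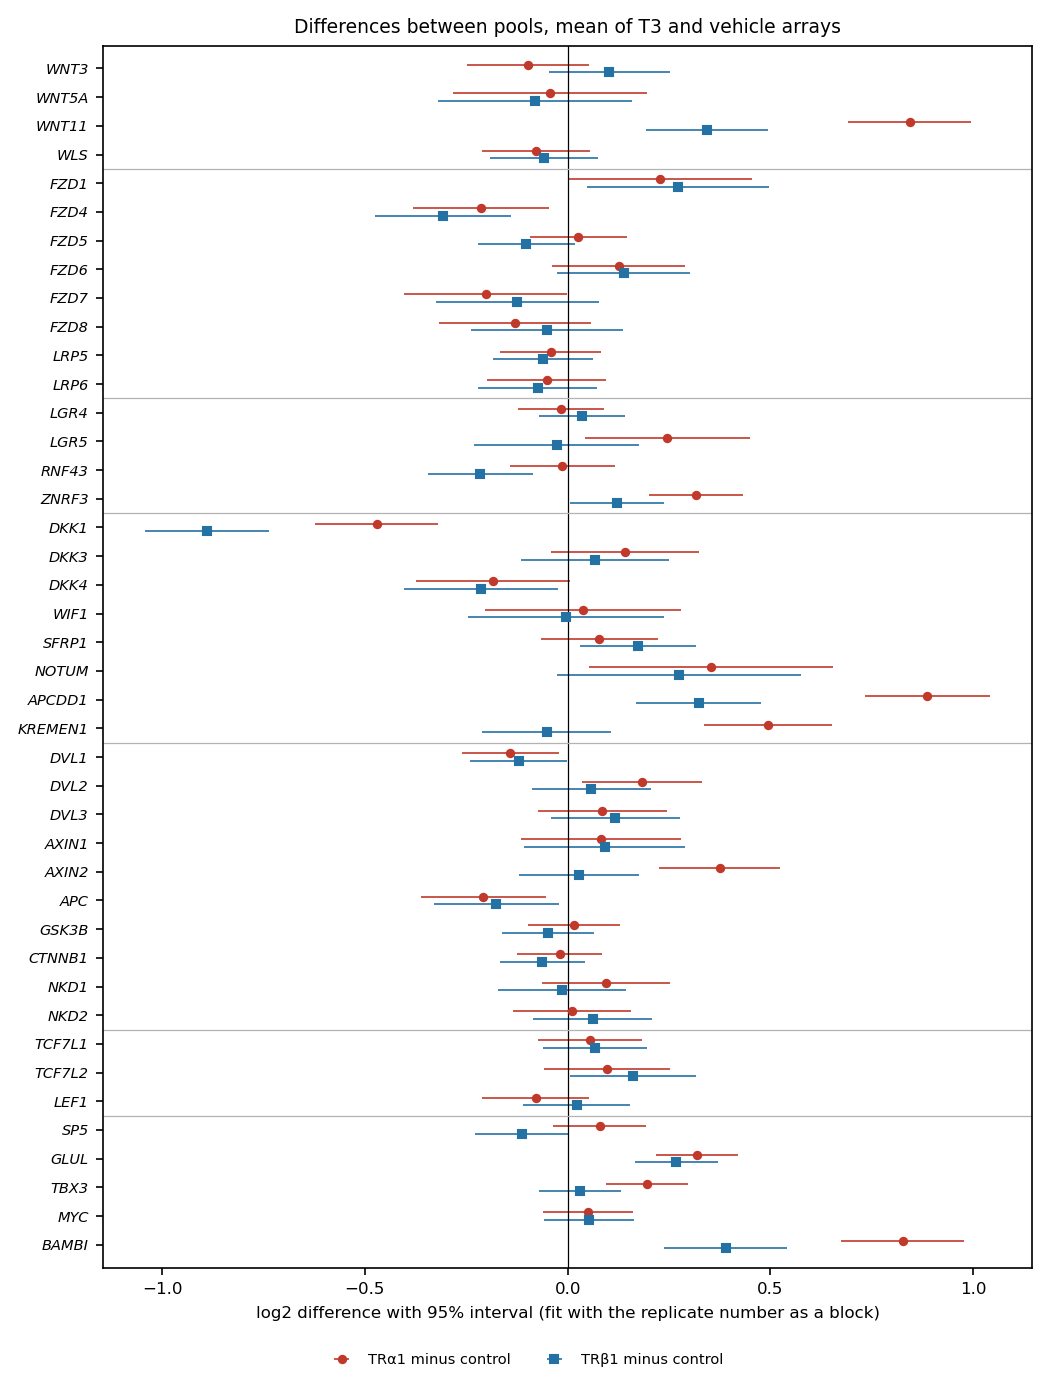
Differences from the control pool for 42 members, averaged over T3 and vehicle, in log2 units with 95% intervals from the model with a block for the replicate number (circles, TRα1 minus control; squares, TRβ1 minus control). APCDD1 (0.89), WNT11 (0.84) and BAMBI (0.83) lie farthest to the right in the TRα1 pool, and DKK1 farthest to the left, at -0.47 in the TRα1 and -0.89 in the TRβ1 pool.

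By role, the median difference between TRα1 and control cells was 0.11 for the 8 inhibitors, -0.05 for the 8 receptors, -0.06 for the 4 ligand genes, 0.12 for the 4 genes of R-spondin reception and receptor turnover, 0.05 for the 10 relay genes, 0.06 for the 3 nuclear factors and 0.20 for the 5 remaining targets, against 0.0015 over all features. The 15 measured members known as targets or feedback genes of β-catenin, which cut across these roles, had a median of 0.20, with 11 above 0 (50.5% of all features). Of these, 2 passed higher (1.04% of all features) and 1 lower (0.341%), and with the block 6 higher (4.43%) and 1 lower (3.11%). Between TRβ1 and control cells their median was 0.03, with 9 of 15 above 0 (50% of all features). DKK1 passed, lower, without the block (0.102%), and with it 3 passed higher (1.91%) and 1 lower (1.7%). Between TRβ1 and TRα1 cells the median was -0.19, with 13 of 15 below 0 (48% of all features were above 0). APCDD1 passed, lower, without the block (0.185%), and with it 4 passed, all lower (1.25%). Among these targets DKK1 was opposite in sign to APCDD1, BAMBI and AXIN2 in the TRα1 pool.

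The differences between pools were also read on the vehicle arrays alone, which hold no added T3, with the spread taken from all 18 arrays. APCDD1 was the only member that passed between TRα1 and control cells, at 0.97 ± 0.12 (SE, 3 of 3 pairs, adjusted p = 0.00117; 0.307% of all features passed). DKK1 was the only one between TRβ1 and control cells, at -0.78 ± 0.14 (3 of 3 pairs, adjusted p = 0.04; 0.117% passed). When only the vehicle arrays of the groups compared were fitted, both calls were lost, with an adjusted p of 0.108 for APCDD1 and 0.224 for DKK1. The DKK1 call was kept in 5 of 18 fits that left out 1 array, those without T3 replicate 1, vehicle replicate 1 or vehicle replicate 2 of TRα1 or T3 replicate 1 or 3 of control cells, and the adjusted p reached 0.271. Between TRβ1 and TRα1 cells no member and no feature passed (5 members and 593 features at an unadjusted p under 0.05). With the block, 6 members were higher in TRα1 than in control cells (WNT11, ZNRF3, APCDD1, AXIN2, GLUL and BAMBI; 2.07% of all features passed, 1.38% higher). DKK1 stayed the only member between TRβ1 and control cells (0.735%), and WNT11, DKK1 and APCDD1 were lower in TRβ1 than in TRα1 cells (0.54%, 0.248% lower).

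Few of these genes, and few of all features, passed a test for T3. In limma no member passed in the TRα1 pool (0.131% of all features did), the TRβ1 pool (0.073%) or the control pool (0.00973%), and none did with the block (0.667%, 0.477% and 0.0973%). At an unadjusted p under 0.05 the members numbered 2, 1 and 1 without the block (2.55%, 2.22% and 2.03% of all features) and 8, 8 and 4 with it (6.79%, 6.18% and 5.95%). The 95% intervals of the 42 members stayed between -0.93 and 0.81 in each pool without the block, and between -0.62 and 0.58 with it. A change of over 1 log2 unit thus lay outside them in both fits. Averaged over the pools none passed without the block (0.423% of all features; 3 members and 3.82% of all features at an unadjusted p under 0.05), and APCDD1 and SP5 were lower with it (1.69% of all features passed, 0.331% lower). In a fit with 1 block for each combination of pool and replicate number, added after seeing the data, 5 passed (2.29%): FZD4 and DKK4 higher, APCDD1, SP5 and BAMBI lower.

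APCDD1 differed between T3 and vehicle by -0.40 in TRα1, -0.28 in TRβ1 and -0.23 in control cells. Averaged over the pools this was -0.30 ± 0.07 (SE, lower in 8 of 9 pairs), with an adjusted p of 0.116, or 0.0122 with the block. SP5 was at 8.32, 8.25 and 8.54 on T3, against 8.31, 8.59 and 8.80 on vehicle, in TRα1 cells. TRβ1 cells had values of 7.97, 8.09 and 8.30 on T3, against 8.26, 8.48 and 8.55 on vehicle. Control cells had values of 8.12, 8.34 and 8.42 on T3, against 8.28, 8.49 and 8.67 on vehicle. The T3 array was the lower one in all pairs but 1, the first TRα1 pair. The SP5 difference averaged -0.23 ± 0.09, with an adjusted p of 0.879, or 0.00938 with the block. BAMBI differed by -0.21 ± 0.15 and was lower on T3 in 9 of 9 pairs, with an adjusted p of 1, 0.1 with the block and 0.0102 with a block per pool and number.

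DKK4, a secreted inhibitor of the same family as DKK1 and known in HepG2 cells as a gene that T3 induces, was at 5.25, 5.42 and 5.32 on T3, against 5.17, 5.05 and 4.91 on vehicle, in TRα1 cells. The TRβ1 pool gave 5.42, 5.24 and 5.28 on T3, against 4.95, 5.18 and 4.86 on vehicle. The control pool gave 5.48, 5.88 and 5.20 on T3, against 5.33, 5.48 and 4.86 on vehicle. T3 arrays were the higher ones in 9 of 9 pairs, and the difference was 0.29 in TRα1, 0.32 in TRβ1 and 0.30 in control cells. Averaged over the pools it was 0.30 ± 0.10 (SE), with an adjusted p of 0.581, 0.0513 with the block and 0.026 with a block per pool and number. Its feature was below the array median on 14 of 18 arrays. FZD4 was higher on T3 in 9 of 9 pairs, by 0.18 ± 0.10 on average, with an adjusted p of 1, 0.262 with the block and 0.0462 with a block per pool and number.

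**Figure D4:**
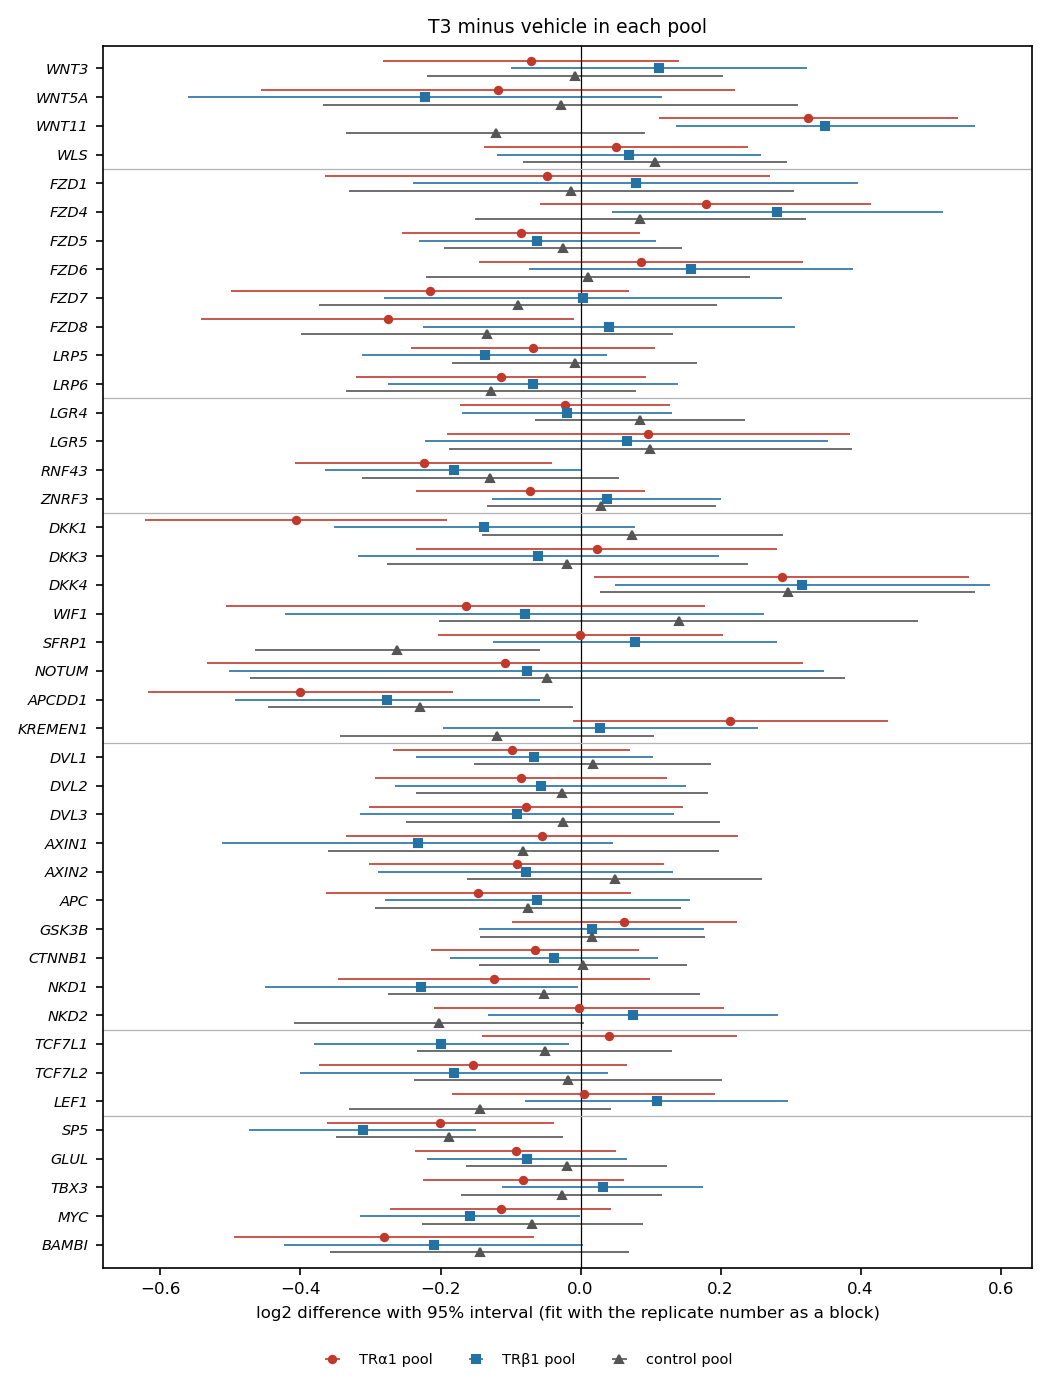
Differences between T3 and vehicle in each pool for the 42 members, in log2 units with 95% intervals from the model with a block for the replicate number (circles, TRα1; squares, TRβ1; triangles, control). DKK4 lies to the right of 0 and APCDD1, SP5 and BAMBI lie to the left in all 3 pools, while WNT11 and DKK1 lie on different sides of 0 in receptor and control pools.

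Averaged over the pools, 31 of 42 members were below 0 on T3, with a median of -0.06, against -0.01 over all features, of which 42.2% were above 0. Of the 15 known targets 13 were below 0, with a median of -0.08. Members that went the same way in all 9 pairs were FZD4 and DKK4, higher (2.04% of all features), and LRP6, RNF43, MYC and BAMBI, lower (1.8%). This count was made after the values were seen, and for MYC the smallest of the 9 differences was close to 0. RNF43 differed by -0.18 ± 0.19 (SE), LRP6 by -0.10 ± 0.18 and MYC by -0.11 ± 0.06, and none of these 3 passed in any fit.

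Whether the T3 response itself differed between the pools was tested directly. No member and no feature passed without the block in any of the 3 comparisons of responses (286, 275 and 223 features at an unadjusted p under 0.05 in turn for the TRα1 and the TRβ1 pool against control and for TRβ1 against TRα1). No member passed with the block either (0.0292%, 0% and 0% of all features did). The largest member differences were those of WNT11, 0.45 between the responses of TRα1 and control cells and 0.47 between those of TRβ1 and control cells, and of DKK1, -0.48 between the responses of TRα1 and control cells. WNT11 had a T3 difference of 0.33 in TRα1, 0.35 in TRβ1 and -0.12 in control cells, and DKK1 one of -0.41 in TRα1, -0.14 in TRβ1 and 0.07 in control cells. Their adjusted p-values were all above 0.99, and without the block the intervals of the members reached from -1.10 to 1.05.

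A second list of 56 other Wnt pathway genes, 54 of them measured, gave the setting for the members. Between TRα1 and control cells 2 of the 54 passed, both higher (1.38% of all features passed, 1.04% higher): SFRP4, a secreted Frizzled-related inhibitor, by 0.80 (adjusted p = 0.00326), and TLE4, a co-repressor of TCF factors, by 0.54 (adjusted p = 0.0336). With the block 4 more passed higher, TNFRSF19, AMER1, BCL9L and FZD3, by 0.45, 0.29, 0.28 and 0.27 (7.54% of all features passed, 4.43% higher). Between TRβ1 and control cells only PYGO1, a co-activator of β-catenin, passed, higher by 0.64 (adjusted p = 0.0173; 0.38% of all features), and TLE4 was added with the block (0.43; 3.61%). The PYGO1 feature lay between 3.16 and 4.54, below the lowest array median of 5.31, so its difference cannot be separated from background. The means of SFRP4 (4.95) and TLE4 (5.10) over the 18 arrays were also below that median. For TRβ1 against TRα1 none passed without the block (0.35%), and with it SFRP4 and TNFRSF19 were lower, by -0.54 and -0.27 (2.2%). The median of the 54 was -0.01 between TRα1 and control cells and 0.02 between TRβ1 and control cells. On T3, averaged over the pools, none passed without the block (0.423%), and with it (1.69%) the kinase CSNK1D was higher by 0.30 (adjusted p = 0.00402) and the receptor ROR1 lower by -0.25 (adjusted p = 0.0258).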

How the data were processed

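The authors deposited log2 expression values for the transcript clusters of 18 arrays. Per the submitters' processing notes they were made with RMA, in R 2.7.1. The genome build is not given in the sources used here. The values were used as deposited, without a further normalization. Of 32321 features 20546 had a gene symbol in the platform annotation, and these were fitted with limma 3.58.1 (lmFit and eBayes) in R 4.3.3, in 1 model of 6 groups with 13 contrasts and Benjamini-Hochberg adjustment within each. Arrays carry no read depth, and 3 per group limit the precision: the median SE of a difference between groups was 0.157, or 0.107 with the block. The fit was run on simulated data with an effect of the replicate number and otherwise independent residuals. That run did not cover dependence between T3 and vehicle arrays of the same pool and number. After group and replicate number were subtracted, the 9 pairs of arrays of the same pool and number had a median correlation of -0.01. For the 36 pairs of arrays from different pools with the same number it was -0.28.

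Arrays with the same replicate number were taken as paired, since all 45 pairs of them from different groups correlated after subtracting group means, the lowest at 0.259. Their median was 0.597, against -0.483 for pairs with different numbers, of which the highest reached 0.455. The fit without the block is the main one. The members and lists were chosen with earlier results of these data known. Values per array are given for members that passed in any contrast in either fit and, in each role, for the member with the highest mean and that with the widest range of group means. The account of DKK4, the block per pool and number and the averaging of T3 and vehicle arrays were added after seeing the data. Promoters are RefSeq sequences.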

Additional observations from a re-analysis of the deposited data

How the results depend on the processing

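None of the 36 single-gene differences that were recomputed, those of members that passed in any of the 3 models, changed direction under the alternatives run for it. The counts of members called in the T3 response of single pools and in the comparisons of responses stayed at 0. The numbers of members called with the replicate number as a block were 9 for TRα1 against control, 6 for TRβ1 against control and 6 for TRβ1 against TRα1 averaged over treatments, 6, 1 and 3 for the same on vehicle, and 2 for T3 averaged over the pools. Array weights gave 7, 2 and 2 for the pool comparisons averaged over treatments and 1 for T3. Averaging the T3 and vehicle arrays of each pool and number first left 1 (APCDD1), 0 and 0, and with the block 6, 1 and 3. With that averaging and the block, ZNRF3, AXIN2 and TBX3 no longer passed between TRα1 and control cells (adjusted p of 0.0515, 0.0559 and 0.203), nor did WNT11, FZD4, APCDD1, GLUL and BAMBI between TRβ1 and control cells or DKK1, AXIN2 and BAMBI between TRβ1 and TRα1 cells. A block for each pool and number gave 5 for T3. Fitting only the arrays compared left 0 for TRα1 and 0 for TRβ1 against control on vehicle. The empirical Bayes trend left 0 for TRβ1 against control on vehicle, as did including features without a symbol. Shares of all features are not given for array weights, averaging without the block, these last fits or the fits below that leave out arrays. A change in their counts therefore cannot be told apart from a change over all features.

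Leaving out 1 array or all arrays of 1 replicate number gave 1 to 5 members for TRα1 against control, 0 to 1 for TRβ1 against control and 0 to 1 for TRβ1 against TRα1 averaged over treatments. On vehicle it gave 0 to 2 for TRα1 against control and 0 to 1 for TRβ1 against control. Without the arrays numbered 2 the WNT11 call between TRα1 and control cells, averaged over treatments, was lost (adjusted p = 0.0965). It was also lost without those numbered 3 (adjusted p = 0.305), while the APCDD1 call between these pools was kept. The BAMBI call between them was lost without those numbered 2 or 3 (adjusted p of 0.764 and 0.427). The DKK1 call between them was lost without those numbered 1, 2 or 3 (adjusted p of 0.0566, 0.167 and 0.736). The DKK1 call between TRβ1 and control cells was lost without the arrays numbered 3 (adjusted p = 0.141), and the APCDD1 call between TRβ1 and TRα1 cells without those numbered 2 or 3 (adjusted p of 0.339 and 0.439). On vehicle the APCDD1 call between TRα1 and control cells was lost without those numbered 2 or 3 (adjusted p of 0.15 and 0.319). The vehicle DKK1 call between TRβ1 and control cells was lost without those numbered 1, 2 or 3 (adjusted p of 0.17 or more). With the block, leaving out replicate numbers gave 4 to 8, 1 to 2 and 1 to 4 averaged over treatments, 2 and 0 to 1 for TRα1 and TRβ1 against control on vehicle, and 0 to 1 for T3. The cause of these changes was not tested. Without detection calls, differences of the 6 features below the array median on all 18 arrays cannot be separated from background.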
